A study of Mus musculus with 6 samples.

Results

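The Schlafen genes Slfn1, Slfn2, Slfn4, Slfn5, Slfn8 and Slfn9 were followed in lung interstitial macrophages of mice given a β-glucan or saline. They were chosen by name, as the rows of the count table whose Ensembl identifiers carry these symbols, and all 6 were found among the 21965 genes of the table. The cells were obtained with fluorescent antibodies, which are not named, from digested lungs of C57Bl/6 mice aged 6 to 8 weeks and kept free of specific pathogens. Mice of the treated group received 1 mg of WGP, a β-glucan preparation, into the peritoneum, and control mice received phosphate-buffered saline (PBS), for 6 days in both groups, and lungs were taken on day 7. No allele or transgene is named for either group, and the labels call the mice of both groups controls. Each group had 3 libraries of polyA RNA, numbered 1 to 3. The labels do not tie a library to a single animal or to a pool. P-values therefore measure only how far these libraries differ from each other, and part of that spread may be technical. The series concerns trained immunity in macrophages of the lung before metastasis, meaning that innate cells respond differently long after a first stimulus, and the comparison asks what β-glucan changed in them.

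Schlafen proteins are a vertebrate family first described in developing thymocytes, where their expression was tied to slowed growth, and many members are induced by interferons. They share an N-terminal core that binds or cleaves RNA, and several act on transfer RNA and thereby on translation. The mouse genes are sorted by protein size. Short members (Slfn1, Slfn2) consist of little more than the core, intermediate members (Slfn3, Slfn4) carry an added linker domain, and long members (Slfn5, Slfn8, Slfn9, Slfn14) also have a helicase-like C-terminal part. Slfn2 is needed for the quiescence of resting T cells and monocytes, and Slfn4 is best known from myeloid cells.

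In GENCODE M21 on GRCm38 the members lie side by side on chromosome 11 within 239 kb, from 82951349 to 83190216. Slfn5 (82951349 to 82964840, plus strand) comes first, followed by Slfn9 (82978390 to 82991830) and Slfn8 (83002158 to 83020810) on the minus strand. Slfn2 (83065112 to 83070678), Slfn1 (83116849 to 83122670) and Slfn4 (83175186 to 83190216) follow on the plus strand. The members were split by whether the bases before their transcription starts held the core of an interferon-stimulated response element. The split is set beside the response of each member below. The run marked in the members without this core was sought among them and did not sort them. The sequences are from RefSeq on GRCm38, read 5′ to 3′ along each gene's strand. Each ends at the last base before the RefSeq start, except that of Slfn5, which covers 160 to 61 bases before it and lies inside the longer gene model of GENCODE. Capitals mark a run of 11 bases in Slfn1, Slfn2 and Slfn4 and the core of an interferon-stimulated response element in Slfn5, Slfn8 and Slfn9.
Slfn1, chr11:83116720-83116819, plus strand: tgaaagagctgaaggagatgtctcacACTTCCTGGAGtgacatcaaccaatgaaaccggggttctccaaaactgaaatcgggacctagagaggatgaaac
Slfn2, chr11:83065012-83065111, plus strand: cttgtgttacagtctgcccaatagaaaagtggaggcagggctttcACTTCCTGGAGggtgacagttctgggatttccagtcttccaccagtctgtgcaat
Slfn4, chr11:83175086-83175185, plus strand: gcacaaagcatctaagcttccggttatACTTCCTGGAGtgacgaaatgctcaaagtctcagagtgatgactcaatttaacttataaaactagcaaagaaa
Slfn5, chr11:82951942-82952041, plus strand: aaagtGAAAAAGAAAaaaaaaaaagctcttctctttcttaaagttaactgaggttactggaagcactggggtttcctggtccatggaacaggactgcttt
Slfn8, chr11:83020811-83020910, minus strand: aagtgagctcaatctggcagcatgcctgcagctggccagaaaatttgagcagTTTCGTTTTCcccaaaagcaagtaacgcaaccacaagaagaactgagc
Slfn9, chr11:82991831-82991930, minus strand: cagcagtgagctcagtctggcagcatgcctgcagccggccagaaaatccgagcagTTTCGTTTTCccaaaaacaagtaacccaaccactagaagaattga

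The run ACTTCCTGGAG began 74 bases before the start of Slfn1, 55 before that of Slfn2 and 73 before that of Slfn4. It was found as the longest run common to these 3 windows, so its presence in all 3 follows from that choice. It was present on either strand in 19 of 27025 promoters of the same 250 bases. The windows of Slfn3 and Slfn14 held neither this whole run nor the interferon response core. That of Slfn3 did hold 9 of its bases, ACTTCCTGG, as did those of Slfn1, Slfn2 and Slfn4. These 9 bases were present in 201 of 27025 promoters. Slfn1 and Slfn4 shared 15 bases there, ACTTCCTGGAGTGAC, which occurred in no other promoter of the table. The core GAAANNGAAA, searched on both strands, was found in the 250 bases before the start of Slfn5 (155 bases before), Slfn8 (48) and Slfn9 (45), not in that of Slfn14, and in 821 of all 27025 promoters (3.04%). In Slfn8 and Slfn9 it lies on the opposite strand and reads TTTCGTTTTC here, and in Slfn5 it lies in a run of adenines. The 250 bases of Slfn8 and Slfn9 were identical at 206 of 242 aligned positions (85.1%). The interferon-gamma activated site TTCNNNGAA, also searched on both strands and free to overlap the other motif, was in none of these windows and in 7.18% of all promoters. These are matches of letters and not measured binding sites.

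The libraries held between 18254678 and 20346517 counts. Levels below are CPM, the counts scaled to a common library size after TMM, the trimmed-mean method of edgeR. Log2 fold changes compare WGP with PBS and carry ± SE. Adjusted p-values come from the quasi-likelihood test of edgeR and were adjusted by Benjamini-Hochberg over the 12305 genes tested. The interstitial macrophage list of 14 markers summed to between 16491 and 18346 CPM after PBS and between 10785 and 13166 CPM after WGP, with none of its genes at 0. Of it Fcgr1 and Csf1r were higher and Mertk, Cd74, H2-Ab1 and Ms4a7 lower after WGP, genes named here after their values were seen. All 9 classical monocyte markers rose, beside 15.2% of all genes tested. Their sum went from between 4849 and 5597 to between 11165 and 14536 CPM. Of 8 nonclassical monocyte markers 1 rose and 7 did not pass. The nonclassical sum was between 8625 and 10362 CPM after PBS and between 8030 and 10113 CPM after WGP. Alveolar macrophage markers were present too, at 4871 to 7373 CPM after PBS and 1268 to 1594 CPM after WGP, and 11 of 12 fell. Y-linked transcripts summed to 112, 179 and 9.79 CPM in PBS replicates 1, 2 and 3 and to between 205 and 227 CPM after WGP. Such transcripts come from male cells, so the PBS libraries differed in sex make-up and were not repeats of the same RNA. All PBS libraries lay below all WGP libraries, so sex was not balanced between the groups. Among markers of other lung cells, 8 of 9 epithelial, 7 of 9 endothelial, 4 of 10 dendritic and 3 of 10 fibroblast markers fell. So did 2 of 11 T and NK, 1 of 7 B cell and 0 of 6 platelet and erythroid markers, and none of these rose. Of all genes tested 15.7% fell, and the T and NK and B cell counts are near that share. In bulk libraries fewer cells of a type and less RNA per cell cannot be told apart, and the part of these shifts in the Schlafen results was not tested.

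All 6 members passed the filter on low counts. Slfn1, Slfn5 and Slfn8 rose after WGP, while Slfn2, Slfn4 and Slfn9 did not pass. Across all genes tested 15.2% rose, 15.7% fell and 31.0% changed in either direction. No member fell, and none was lower at an unadjusted p under 0.05 in edgeR or called lower by DESeq2 or limma-voom. The median log2 fold change of the 6 members was 0.94, against -0.02 for all genes tested. The WGP libraries lay wholly above the PBS libraries for 5 members, all but Slfn4, and for 23.2% of all genes tested, while 24.9% of all genes and 0 members lay wholly below. With library sizes alone as the scaling 33.4% of the called genes were higher, in place of 49.2%, and the median of all genes moved to -0.12, but the calls of the members did not change.

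**Figure D1:**
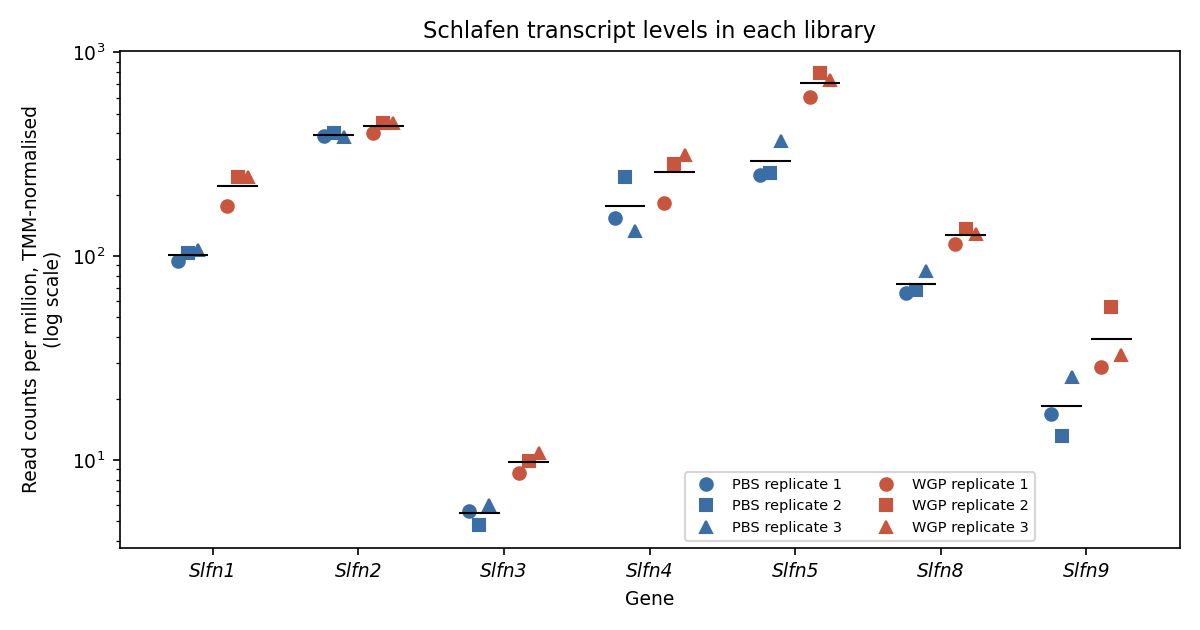
Level of each Schlafen gene with counts (horizontal axis) in every library, as TMM-normalised CPM on a log axis, with PBS in blue, WGP in red, 1 symbol per replicate and a line at the group mean. Slfn1, Slfn5 and Slfn8 separate the groups widely, Slfn2 is nearly level, and the libraries of Slfn4 overlap.

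Among the short members, Slfn1 (ENSMUSG00000078763) stood at 94.9, 103 and 107 CPM in PBS replicates 1, 2 and 3 and at 175, 244 and 243 CPM in WGP replicates 1, 2 and 3. The lowest WGP library was well above the highest PBS library. The rise of Slfn1 was 1.12 ± 0.13 on the log2 scale (adjusted p = 0.000271), or 2.17-fold with a 95% interval of 1.78 to 2.64. Slfn2 (ENSMUSG00000072620), the member tied to quiescence, stood at 389, 402 and 386 CPM after PBS and at 402, 448 and 452 CPM after WGP. WGP replicate 1 (401.8 CPM) and PBS replicate 2 (401.6 CPM) were almost equal, so the groups only just did not overlap. Slfn2 did not pass (log2 fold change 0.15 ± 0.07, adjusted p = 0.144), and its 95% interval of 0.993-fold to 1.23-fold lay wholly below that of Slfn1. The 2 short genes, next to each other on the chromosome, thus had intervals of change that did not meet.

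Of the intermediate members, Slfn4 (ENSMUSG00000000204) varied most within the groups in relation to its change. It stood at 153, 245 and 133 CPM after PBS and at 183, 282 and 313 CPM after WGP. PBS replicate 2 was above WGP replicate 1, so the groups overlapped. The log2 fold change was 0.55 ± 0.33 (adjusted p = 0.281), with a 95% interval from 0.807-fold to 2.67-fold. It was 0.85 without PBS replicate 2 (adjusted p = 0.077) and 0.27 with Y-linked transcripts as a covariate (adjusted p = 0.662), neither of which passed. Slfn3, the other intermediate gene, was outside the chosen members and had far lower levels. It rose from 5.64, 4.78 and 5.99 CPM to 8.64, 9.82 and 10.8 CPM (log2 fold change 0.84 ± 0.21, adjusted p = 0.0133), but without WGP replicate 3 it did not pass (adjusted p = 0.0544).

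Slfn5 (ENSMUSG00000054404) had the highest log2 fold change of the family and belongs to the long members. It stood at 252, 257 and 368 CPM after PBS and at 603, 789 and 732 CPM after WGP. All WGP libraries were above all PBS libraries, and PBS replicate 3 was the highest of its group. Slfn5 rose by 1.28 ± 0.18 (log2, adjusted p = 0.00209), or 2.43-fold with a 95% interval of 1.81 to 3.24. Exons of Slfn5 share 559 bases (8.8% of their length) with Slfn5os on the other strand, and how reads from that stretch were assigned is not known.

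Slfn8 (ENSMUSG00000035208) gave the tightest groups of the long members. It stood at 65.9, 67.8 and 85.0 CPM after PBS and at 114, 136 and 129 CPM after WGP. The groups did not overlap, and Slfn8 rose by 0.80 ± 0.11 (log2, adjusted p = 0.000469), 1.74-fold with a 95% interval of 1.47 to 2.05. Slfn9 (ENSMUSG00000069793), its neighbour on the chromosome, stood at 16.8, 13.03 and 25.6 CPM after PBS and at 28.5, 56.0 and 32.8 CPM after WGP. WGP replicate 2 was far above the other WGP libraries, and WGP replicate 1 was close to PBS replicate 3. Slfn9 did not pass (log2 fold change 1.08 ± 0.36, adjusted p = 0.0692), and its 95% interval of 0.20 to 1.96 on the log2 scale held that of Slfn8. It passed in 5 of 16 alternative analyses, and its log2 fold change was 0.73 without WGP replicate 2 and 1.55 with Y-linked transcripts as a covariate (adjusted p = 0.0254), an alternative chosen after the data were seen.

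**Figure D2:**
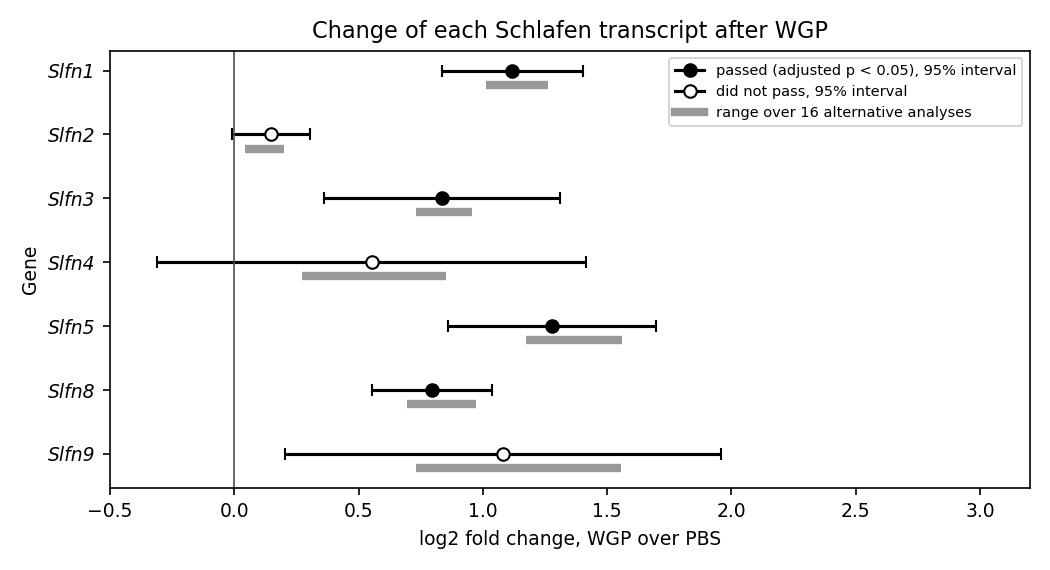
Log2 fold change of each Schlafen gene, WGP over PBS (horizontal axis), with its 95% interval, filled where it passed (adjusted p under 0.05), and below it in grey the range over 16 alternative analyses. Slfn1, Slfn5 and Slfn8 lie to the right of Slfn2 in every analysis shown, and the intervals of Slfn4 and Slfn9 are the widest.

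Sequence shared between members bears on how exactly reads could be assigned. Of the stretches of 50 bases in the annotated transcripts of Slfn8, 14.6% also occur in a transcript of another gene, most of them in Slfn10-ps, a pseudogene between Slfn8 and Slfn2 that was not analysed here. The share was 11.9% for Slfn9, 11.3% for Slfn4, 11.1% for Slfn5 (most of them in Slfn5os), 4.3% for Slfn2 and 0.6% for Slfn1. Slfn3 shared 16% of its stretches, most often with Slfn4. How shared reads were counted is not known, so values of Slfn3, Slfn4, Slfn5, Slfn8 and Slfn9 are less certain than those of Slfn1 and Slfn2. Slfn14, a long member active in platelet and red cell precursors, had 3 counts in WGP replicate 3 and 0 in every other library, and the Schlafen-like gene Slfnl1 on chromosome 4 had 0 in all 6. A count of 0 allows up to 3 counts, which is between 0.143 and 0.168 CPM in these libraries and covers counting error only.

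Per length of exon, Slfn2 was the most abundant Schlafen transcript in every library. Its level was between 232 and 241 CPM per kb of merged exon after PBS and between 241 and 272 CPM per kb after WGP. After PBS the levels per kb of Slfn1 (50.9 to 57.4), Slfn5 (39.8 to 58.1) and Slfn4 (33.5 to 61.7) followed, and neighbours among these 3 overlapped. Slfn8 (16.1 to 20.8 CPM per kb), Slfn9 (2.18 to 4.29) and Slfn3 (1.40 to 1.76) came next with no overlap between neighbours. After WGP the order of the means was the same, and Slfn1 (94.0 to 131 CPM per kb) and Slfn5 (95.3 to 125) still overlapped each other. They no longer overlapped Slfn4 (46.1 to 79.0 CPM per kb).

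The make-up of the family shifted with these changes. The summed level of all Schlafen genes was 404 ± 17.98 CPM per kb after PBS and 597 ± 73.5 CPM per kb after WGP (mean ± SD, n = 3 each). Slfn2 made up 60.95%, 57.6% and 56.9% of it in PBS replicates 1, 2 and 3 and 47.1%, 42.0% and 42.7% in WGP replicates 1, 2 and 3. The share of Slfn1 was between 13.2% and 14.1% after PBS and between 18.4% and 20.5% after WGP, and that of Slfn5 between 9.68% and 14.3% and between 18.2% and 19.45%. Slfn2 thus held a lower share in all WGP than in all PBS libraries at a nearly level amount, while Slfn1 and Slfn5 held a higher share. Shares were not tested.

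**Figure D3:**
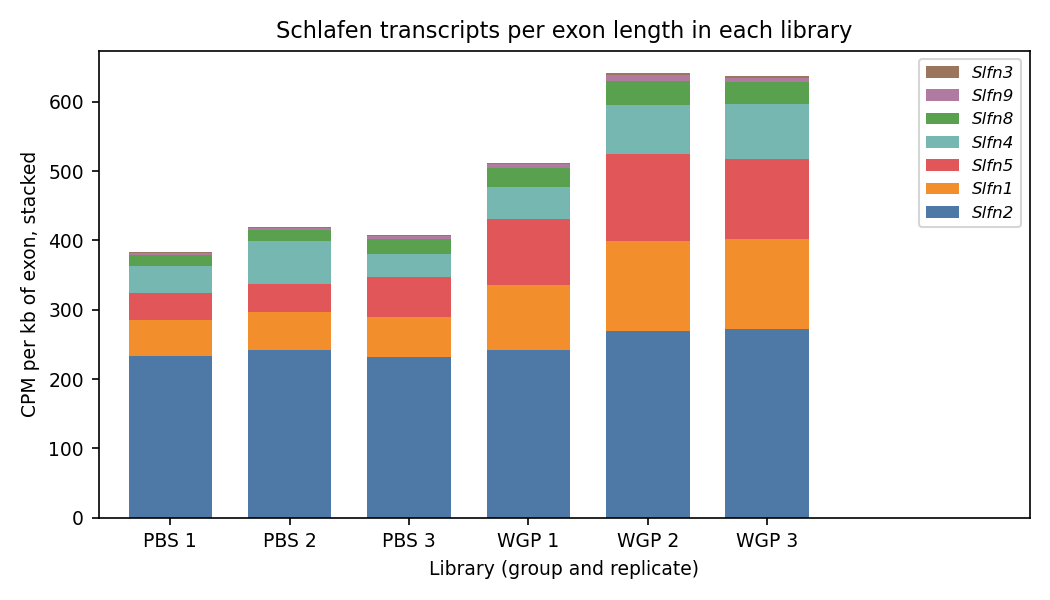
Levels of Schlafen genes per kb of merged exon (vertical axis, CPM per kb, stacked from 0) in each of the 6 libraries. The Slfn2 block is of similar height in all libraries, and the Slfn1 and Slfn5 blocks are taller in the 3 WGP libraries.

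The genes around the cluster were looked at next. Within 500 kb of either end of the span lay 22 other genes of the table, of which 16 were tested. Of these, Ccl9 was higher, and Ccl3, Ccl4 and Ccl6 were lower after WGP. All 4 are chemokine genes at the far end of the window, and the other 12 did not pass. Of all genes tested 15.2% rose and 15.7% fell, beside which these counts do not stand out. The median log2 fold change of the 16 was -0.13, against 0.94 for the members. Ccl3, a chemokine for monocytes and T cells, fell by 1.17 ± 0.18 on the log2 scale (adjusted p = 0.00306), Ccl4 by 0.88 ± 0.16 (adjusted p = 0.00300) and Ccl6 by 0.51 ± 0.10 (adjusted p = 0.00436). Ccl9 rose by 0.38 ± 0.09 (adjusted p = 0.0117), a call lost without PBS replicate 1 (adjusted p = 0.0588), and 2 flanking genes were higher without WGP replicate 2. Unc45b, next to Slfn5 and named here for its position, did not pass (-0.37 ± 0.95, adjusted p = 0.804).

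**Figure D4:**
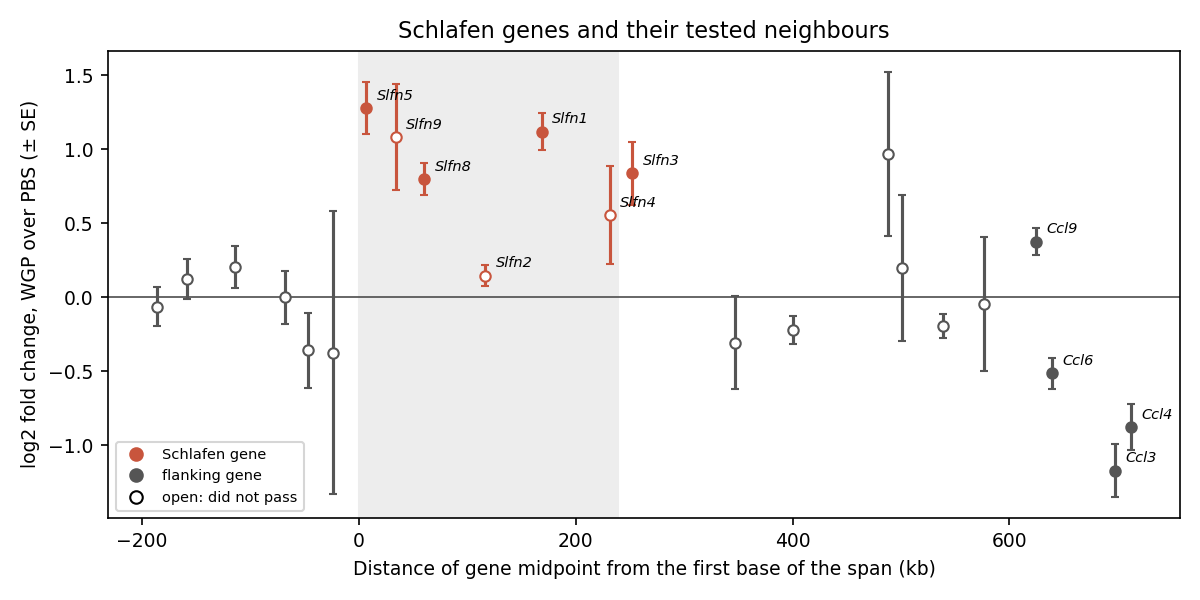
Log2 fold change with its SE (vertical axis) against the distance of each gene's midpoint from the first base of the members' span (horizontal axis, kb), with Schlafen genes in red, tested flanking genes in grey, the span shaded and open symbols for genes that did not pass. The Schlafen genes lie at or above 0.15, and the chemokine genes Ccl3, Ccl4 and Ccl6 lie below 0.

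Interferons act through receptors on the cell surface, the kinases Jak1, Jak2 and Tyk2, and transcription factors such as Stat2 and Irf9, which bind the response elements of their target genes. Of 54 tested genes of this pathway, Schlafen genes not counted, 34 rose (63.0%) and 20 did not pass, with a median log2 fold change of 0.70. Of all genes tested 15.2% rose, and their median was -0.02. In edgeR's test 0 fell, 1 was lower at an unadjusted p under 0.05 (Il10rb, adjusted p = 0.0585), and DESeq2 and limma-voom called 0 lower. Of the 8 interferon ligand genes listed only Ifng had enough counts to be tested. It stood at 1.99, 0.779 and 1.09 CPM after PBS and at 0.505, 6.86 and 0.438 CPM after WGP (log2 fold change 1.01 ± 1.06, adjusted p = 0.513), so WGP replicate 2 alone was high. Ifnb1 had 3, 8 and 2 counts after PBS and 0 in each WGP library, too few to test.

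Of 6 receptor chains Ifngr2 (0.50 ± 0.08, adjusted p = 0.000834), Ifnar2 (0.42 ± 0.08, adjusted p = 0.00242) and Ifngr1 (0.34 ± 0.07, adjusted p = 0.00395) rose on the log2 scale. Il10rb, Ifnar1 and Ifnlr1 did not pass. Of 12 kinases and transcription factors 6 rose, among them Tyk2 (0.63 ± 0.07, adjusted p = 0.000157), Irf9 (0.53 ± 0.08, adjusted p = 0.00107), Irf8 (1.03 ± 0.14, adjusted p = 0.00144) and Irf5 (0.50 ± 0.09, adjusted p = 0.00263). Feedback inhibitors split evenly, with 3 of 6 higher, namely the phosphatase gene Ptpn6 (0.51 ± 0.09, adjusted p = 0.00144), the adaptor Sh2b3 (0.39 ± 0.08, adjusted p = 0.00325) and the receptor inhibitor Usp18 (0.88 ± 0.18, adjusted p = 0.00458). Socs3 (-0.32 ± 0.21, adjusted p = 0.314) did not pass with all libraries and passed as lower without WGP replicate 2 (adjusted p = 0.00187).

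Of 29 other interferon-inducible genes 22 rose and 7 did not pass, with a median log2 fold change of 0.77. The rise of the kinase gene Eif2ak2, which halts translation on double-stranded RNA, was 0.85 ± 0.08 (adjusted p = 7.18e-05). Oas3 and Oas2, which make the activator of a ribonuclease, rose by 1.02 ± 0.11 (adjusted p = 0.00018) and 0.81 ± 0.10 (adjusted p = 0.000306), and Ifih1, whose protein senses double-stranded RNA, by 0.75 ± 0.09 (adjusted p = 0.000233). By their log2 fold changes Slfn1, Slfn5 and Slfn9 (which did not pass) lay above this list's median, Slfn8 close to it, and Slfn4 and Slfn2, which did not pass, below it. A broad list of RNA cleavage, RNA decay and restriction genes, not all of which act as Schlafen proteins do, held 9 tested genes. Of these, Samhd1 (1.07 ± 0.11, adjusted p = 9.01e-05), N4bp1 (0.51 ± 0.07, adjusted p = 0.000335), Adar (0.62 ± 0.09, adjusted p = 0.0005) and Zc3hav1 (0.31 ± 0.08, adjusted p = 0.010) rose and 5 did not pass. The call of Zc3hav1 was lost without PBS replicate 1 (adjusted p = 0.0512).

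The members differed in which library of a group was high, and 3 patterns could be seen. Slfn1, Slfn5 and Slfn8, the members that rose, had PBS replicate 1 lowest and PBS replicate 3 highest, and WGP replicate 1 lowest and WGP replicate 2 highest. For Slfn1, WGP replicates 2 and 3 were almost equal (243.5 and 243.2 CPM), so their order is hardly resolved. The summed level of the 29 interferon-inducible genes stood in the same order, at 1822, 1900 and 2311 CPM in PBS replicates 1, 2 and 3 and at 3081, 4156 and 3725 CPM in WGP replicates 1, 2 and 3. Classical monocyte markers stood in the same order after PBS, at 4849, 4960 and 5597 CPM, and in another order after WGP, with the highest sum (14536 CPM) in WGP replicate 1, the library in which every member was lowest among the WGP libraries. WGP replicate 1 was the lowest of its group for 37.3% of all genes tested.

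Slfn9 stood in another order after PBS, and after WGP in the same order with WGP replicate 2 at 1.97 times WGP replicate 1. By the root mean square difference of log2 CPM profiles centred on their mean over 6 libraries, the nearest of 9333 genes with a mean of at least 5 CPM was the interferon-gamma-inducible GTPase gene Irgm1 (difference 0.11). Irgm1 stood at 70.5, 60.2 and 90.5 CPM in PBS replicates 1, 2 and 3 and at 118, 226 and 129 CPM in WGP replicates 1, 2 and 3. Irgm1 was picked for this likeness, so its order among the libraries adds no support of its own. The library with the highest level of both, WGP replicate 2, was the one in which Ifng was high. After PBS, Ifng was highest in replicate 1 (1.99 CPM) and Slfn9 in replicate 3 (25.6 CPM). WGP replicate 2 also had the highest sum of T and NK cell markers of its group, at 96.7 CPM. WGP replicates 1 and 3 had 25.7 and 61.9 CPM. After PBS the T and NK sums were 183, 82.1 and 161 CPM and did not follow Slfn9. Summed B cell, interstitial macrophage, alveolar macrophage, dendritic, endothelial and cell cycle genes were also highest in WGP replicate 2 within the WGP group. Sums of the other listed cell types were highest in another WGP library. The part of Ifng and of any cell type in the level of Slfn9 was not tested.

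Slfn4 had another pattern, with PBS replicate 2 at 1.84 times PBS replicate 3. Its libraries, and those of Slfn2 over a far narrower range, stood within each group in the order of the summed neutrophil markers, which was 2122, 2894 and 1288 CPM after PBS and 1658, 2472 and 3194 CPM after WGP. None of the 12 neutrophil genes was at 0 in all libraries, Mmp8 rose (1.17 ± 0.25, adjusted p = 0.0202; named here after its values were seen) and 11 did not pass, and the call of Mmp8 was lost when PBS replicate 1 (adjusted p = 0.0773) or replicate 3 (adjusted p = 0.0558) was left out. The most abundant of them, Csf3r and S100a9, stood at 583 and 278 CPM in PBS replicate 3 and at 1221 and 808 CPM in WGP replicate 3, the lowest and the highest library of Slfn4. These libraries were picked by the level of Slfn4. Across groups the order did not hold. The neutrophil sum was lower in WGP replicate 1 (1658 CPM) than in PBS replicate 1 (2122 CPM), while Slfn4 was higher (183 against 153 CPM). The order within the groups was not particular to neutrophil markers. Summed epithelial markers stood in it too, at 402, 690 and 317 CPM after PBS and 19.3, 63.8 and 69.7 CPM after WGP. Alveolar macrophage markers stood in it after PBS but not after WGP. The part of RNA from neutrophils or other cells in the levels of Slfn4 and Slfn2 was not tested. The genes with the profile most like that of Slfn4 were Trim30b (difference 0.14) and the cytokine gene Tnfsf14 (0.14).

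The nearest profiles of the other members were as follows. For Slfn1 they were those of Hsh2d (difference 0.07), an adaptor gene, and Oas3 (0.09), for Slfn5 those of Gvin1 (0.06), an interferon-inducible giant GTPase gene, and the surface receptor gene Cd180 (0.10). For Slfn8 they were Arl5c (0.03) and Nxpe4 (0.03), and for Slfn2 Selplg (0.02), which encodes a selectin ligand, and Tspyl1 (0.02). A flat profile such as that of Slfn2 has small differences to many genes. The nearest Schlafen gene was Slfn5 for Slfn1 (0.18) and for Slfn9 (0.28), and Slfn3 for Slfn8 (0.11).

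**Figure D5:**
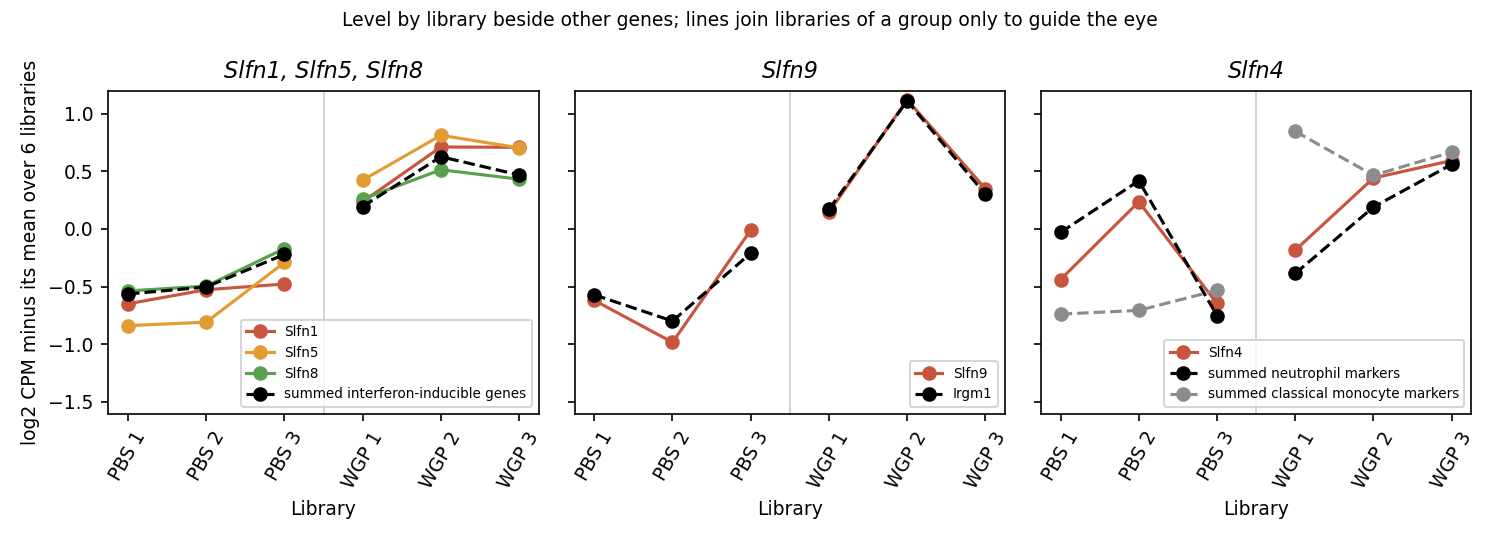
Level by library (horizontal axis) as log2 CPM minus its mean over the 6 libraries (vertical axis) of Slfn1, Slfn5 and Slfn8 with the summed interferon-inducible genes (left), Slfn9 with Irgm1 (middle) and Slfn4 with summed neutrophil and classical monocyte markers (right), where lines join the libraries of a group to guide the eye. WGP replicate 2 stands out for Slfn9, and PBS replicate 2 is high within its group for Slfn4 and the neutrophil markers.

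Set beside the sequences, the log2 fold changes of the members with the GAAANNGAAA core were 1.28 for Slfn5, 0.80 for Slfn8 and 1.08 for Slfn9, of which the last did not pass. Those of the members without this core, which share the run ACTTCCTGGAG, were 1.12 for Slfn1, 0.55 for Slfn4 and 0.15 for Slfn2. Of these, Slfn1 rose and the others did not pass. Whether the response differs between members with and without the core was not tested.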

How the data were processed

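The authors deposited 1 table of raw read counts per Ensembl gene for 6 libraries. HTSeq 0.10.0, FastQC 0.10.1 and the build GRCm38 (mm10) are named in the submitters' processing notes. How reads were aligned, annotated and assigned to strands is not given in the sources used here. Libraries were made with a NuGEN mRNA-Seq kit after polyA selection, per the labels' protocols, and the sorting gate is not named there. GENCODE M21 matched 21939 of 21965 identifiers (99.9%) and supplied symbols, coordinates and merged exon lengths. Promoters were from the RefSeq table of GRCm38, which held 5 of the 6 members with 1 start and Slfn8 with 2, of which the first listed was used.

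The groups were compared by the quasi-likelihood test of edgeR 4.0.16 (R 4.3.3) with filterByExpr, TMM and glmQLFit with robust estimation (two-sided, threshold 0.05, SE = size of the log2 fold change divided by the square root of F). Alternatives used other scalings, filters and tests (DESeq2 1.42.0, limma-voom 3.58.1), a replicate block, each library left out, a threshold of 0.01 and the Y-linked level as a covariate. The members, lists and tests were chosen with earlier results of these data known, and support nothing independently. Named genes were the Schlafen genes, up to 4 of each interferon role and of the flanks by smallest p, the 2 nearest profiles of each member and the 2 most abundant genes of a marker list set beside one. The test was checked on simulated data. Replicates differed beyond sampling noise (chi-square of 14.0 to 26.0 per degree of freedom). Same-numbered PBS and WGP libraries did not deviate together, so the numbers were not used as pairs. Some genes that this rule names are not reported here.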

Additional observations from a re-analysis of the deposited data

How the results depend on the processing

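Slfn1, Slfn5 and Slfn8 passed, and Slfn2 and Slfn4 did not, in all 16 alternative analyses, with the same direction throughout, and no member was called lower in any of them. Slfn9 passed with DESeq2 (1.08), limma-voom (1.07), without robust estimation (1.08), with the Y-linked covariate (1.55, chosen after the data were seen) and without PBS replicate 3 (1.39). It lay between 0.73 and 1.39 with 1 library left out and did not pass in the other 5 such analyses. The cause was not tested. With the replicate number as a block, 3 members passed as before, 35 interferon pathway genes rose and 3185 genes were called in place of 3809; deviations of same-numbered libraries correlated at -0.06, -0.08 and -0.05. Between 28 and 39 interferon pathway genes rose with 1 library left out. Between 0 and 1 of them fell, and 1 fell with upper quartile scaling, with library sizes alone and with the filter of 1 CPM in 3 libraries. Flanking genes called higher numbered 0 to 2 with 1 library left out and 0 at the threshold of 0.01. Those called lower were 5 with upper quartile scaling and 5 with library sizes alone. Of all genes, 10% were higher with library sizes alone, and 9.01% higher and 8.89% lower at the threshold of 0.01. With 1 library left out 9.63% to 13.9% were higher and 10.3% to 15.5% lower, with the fewest genes called (2491) without PBS replicate 1. Ifng turned to -0.00070 with limma-voom and -0.12 with the replicate block, and lay between -1.44 and 1.52 with 1 library left out, so its direction rests on WGP replicate 2. Few or no counts limit Slfn14, Slfnl1 and the interferon ligands other than Ifng, and the spread between libraries limits Slfn4, Slfn9 and Ifng.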
